A study of Mus musculus with 7 samples.

Results

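The 10 genes of mitochondrial fusion, fission and mitophagy described here were each found by its GENCODE M21 symbol among the 46603 genes counted: Mfn1, Mfn2 and Opa1 of fusion, Dnm1l, Fis1 and Mff of fission, and Pink1, Becn1, Bnip3l and Fundc1 of mitophagy and autophagy. All 10 passed the filter on low counts, as did 16887 genes in all. The libraries are RNA-seq of tumors that grew in female Balb/c nude mice, 16 weeks of age, injected with mouse embryonic fibroblasts (MEFs, line ATCC CRL-2752). In the KO group, NM1 (nuclear myosin 1) was deleted from the MEFs with CRISPR/Cas9. The KO+NM1 group carries the same deletion and received NM1 fused to HA and V5 tags by lentivirus, followed by Neomycin selection and the picking of single clones. Tumors were collected 30 days after injection according to the sample labels, while the study's methods give a slightly earlier day. The site is the right flank in the labels and the study's methods, and the mammary pad in the study's results. The labels write of 1 tumor of each condition cut into 4 pieces, of which 3 KO and 4 KO+NM1 pieces were sequenced. The study's methods write of tumors in the plural, each divided into pieces. The spread between pieces may hold no difference between mice, and the p-values measure that spread alone. The mice are the hosts of mouse cells, and bulk counts do not separate grafted from host cells.

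Mitochondria form a network that is joined by fusion and cut by fission. The outer membrane GTPases mitofusin 1 and mitofusin 2 fuse outer membranes, and OPA1 fuses inner membranes and shapes the cristae, while the GTPase DRP1, the product of Dnm1l, is recruited by adaptors such as MFF and FIS1 to constrict the organelle. Damaged mitochondria are removed by mitophagy, either through the kinase PINK1 and the ubiquitin marks that follow it or through receptors on the outer membrane such as BNIP3L (NIX) and FUNDC1, and Beclin 1, the product of Becn1, belongs to the lipid kinase complex that starts autophagosome formation. Tissues rich in mitochondria, such as muscle and brown fat, express many of these genes strongly.

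The libraries held 24088309 to 28326568 counts. Myo1c, the gene that encodes NM1 together with other isoforms, ranged from 289 to 312 CPM (TMM-scaled counts, expressed relative to library size) over the KO libraries. Its KO+NM1 libraries ranged from 381 to 437 CPM. The log2 fold change was −0.43 ± 0.13 (SE; edgeR adjusted p = 0.0311). The call held in 10 of 16 alternative settings. Summed counts over isoforms do not show NM1 itself. Every log2 fold change below is KO minus KO+NM1, and a gene was called at an adjusted p under 0.05 by the edgeR quasi-likelihood test. The pieces differed in the cell types they held. Markers of skeletal muscle (10 genes) summed to 2685, 22090 and 17699 CPM across KO pieces 01, 02 and 03. In the other tumor they summed to 7.25 to 26.0 CPM, where 3 of the 10 had 3 counts or fewer in every piece. White adipocyte markers (10 genes) summed to 51.5 to 215 CPM in the KO pieces and to 4582, 34608, 34103 and 24442 CPM in KO+NM1 pieces 01 to 04, and no gene of the list was at 0 in all pieces of a group. Brown adipocyte markers (6 genes) summed to 9.85 to 40.7 CPM in KO and to 419, 930, 3685 and 436 CPM in KO+NM1. Macrophage markers summed to 2793 to 3167 CPM in KO and 462 to 666 CPM in KO+NM1, and B and plasma cell markers to 3641 CPM in KO+NM1 piece 01 against 3.41 to 14.7 CPM in its other pieces. Fewer cells of a type and less RNA per cell cannot be told apart in these bulk samples, and the part of these markers in the values below was not tested.

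By the test 5 of the 10 genes moved and 4 of them were lower in KO: Dnm1l was higher, Mfn2, Fis1, Pink1 and Bnip3l were lower, and Mfn1, Opa1, Mff, Becn1 and Fundc1 were not called. Of all tested genes, 25.7% were called higher and 24.5% lower, 50.2% in either direction, so 5 called genes of 10 is no more than the background. The KO and KO+NM1 values did not overlap for 6 of the 10, against 57% of all tested genes. With a change of at least 2-fold as well, 2 of the 10 were called (Mfn2 and Pink1), against 37.3% of all tested genes. The median log2 fold change of the 10 was 0.08, beside a median near 0 over all tested genes.

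**Figure D1:**
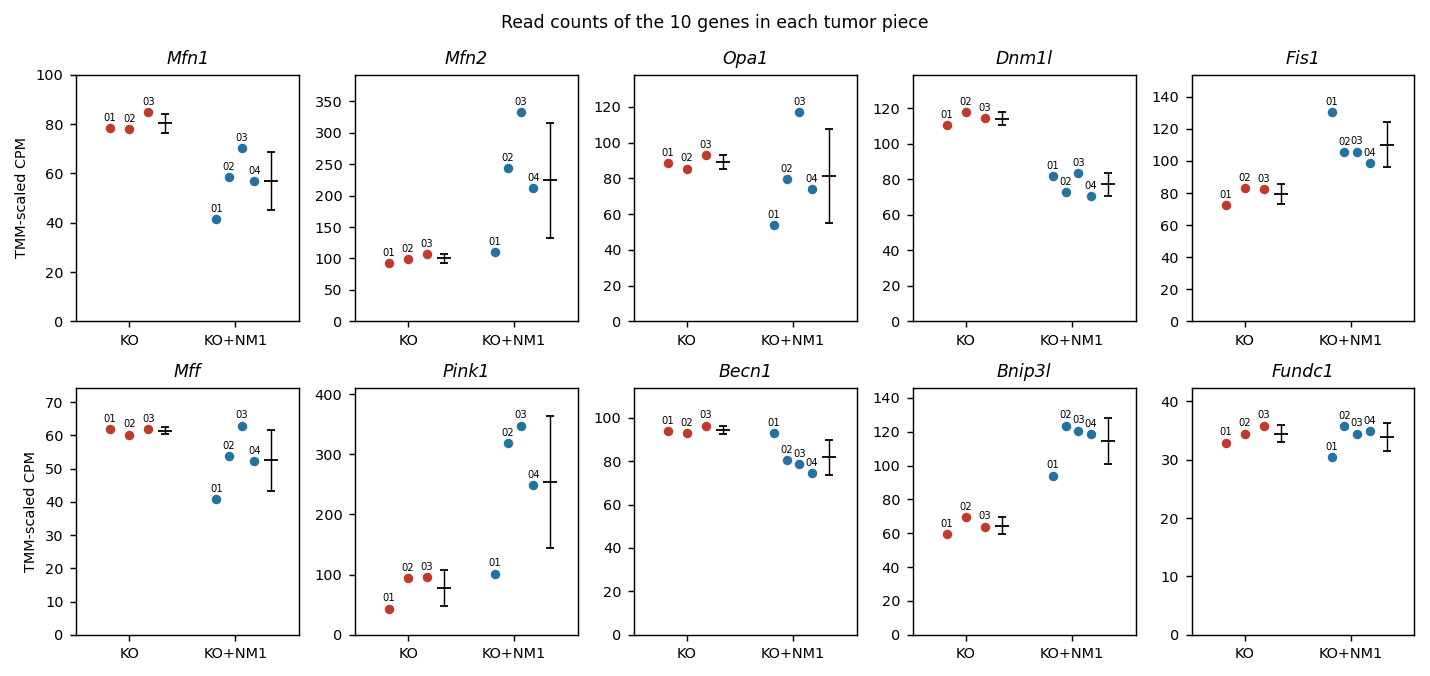
TMM-scaled CPM of each gene (y axis, from 0) in the KO pieces (red) and the KO+NM1 pieces (blue), numbered as labelled, with the mean and SD of each group in black. The 3 KO pieces lie close together for all genes but Pink1, whose piece 01 is at 43.3 CPM, and the KO+NM1 pieces spread widely for Mfn2, Pink1 and Opa1.

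The mitofusins had fold changes of opposite sign, and of the pair Mfn2 was the one called. Mfn2, whose product also tethers mitochondria to the endoplasmic reticulum, lies on chr4:147873599-147904704 (GRCm38, minus strand). It was at 93.3, 99.4 and 107 CPM across KO pieces 01, 02 and 03 and at 110, 243, 332 and 211 CPM across KO+NM1 pieces 01, 02, 03 and 04. All KO pieces were below all KO+NM1 pieces, but KO+NM1 piece 01 lay next to the KO pieces and far below the other pieces of its group. The log2 fold change was −1.16 ± 0.34 (SE; edgeR adjusted p = 0.0283). The call was lost when any KO piece or KO+NM1 piece 02, 03 or 04 was left out, with adjusted p from edgeR between 0.0528 and 0.0786, and with the replicate number as a block (0.0786).

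Mfn1 (chr3:32529465-32579239, plus strand) had 78.2, 78.1 and 84.8 CPM in KO and 41.6, 58.5, 70.1 and 56.9 CPM in KO+NM1. Every KO piece was above every KO+NM1 piece, and the log2 fold change of 0.50 ± 0.18 (SE) missed the threshold, with an edgeR adjusted p of 0.0562. It passed with library size alone as the scaling (edgeR adjusted p = 0.00663), with limma voom and sample quality weights together (0.00189) and without KO+NM1 piece 03 (0.0352). Opa1 (chr16:29579334-29654884, plus strand) stood at 88.5, 85.4 and 93.1 CPM in KO. In KO+NM1 it was at 53.9, 79.7, 117 and 74.0 CPM, and these values enclose those of KO. Its difference was 0.13 ± 0.25 on the log2 scale (edgeR adjusted p = 0.683), and the sign turned under upper-quartile scaling, to −0.03.

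Dnm1l, on chr16:16312230-16358959 (minus strand), was the 1 gene of the 10 called higher in KO in edgeR with TMM scaling. It had 110, 118 and 114 CPM in KO and 81.7, 72.5, 83.4 and 70.6 CPM in KO+NM1, with a wide gap between the groups. The log2 fold change was 0.57 ± 0.12 (SE; edgeR adjusted p = 0.00699). Leaving out KO piece 01, 02 or 03 raised the edgeR adjusted p to 0.0536, 0.0811 or 0.0730, and the replicate block to 0.0713. Fis1 (chr5:136953275-136966234, plus strand), a small outer membrane protein that can serve as a docking site for fission factors, went the other way. It had 72.5, 83.2 and 82.4 CPM in KO and 130, 105, 106 and 98.6 CPM in KO+NM1, without overlap and with KO+NM1 piece 01 the highest. Its log2 fold change was −0.47 ± 0.14 (SE; edgeR adjusted p = 0.0292), lost with library size alone (0.266), with the replicate block (0.105) and without KO piece 01 (0.0606). Mff (chr1:82724890-82752394, plus strand), the main adaptor of DRP1, had 62.0, 60.2 and 61.9 CPM in KO and 40.7, 53.8, 62.9 and 52.2 CPM in KO+NM1. The groups overlapped, and the difference of 0.23 ± 0.16 was not called (edgeR adjusted p = 0.280), except with library size alone (0.0327). Mff shares 195 exon bases with C430014B12Rik on the opposite strand, which had 2 to 15 counts per library. Dnm1l shares 243 exon bases with Gm49521 on the opposite strand, which was not among the genes counted. Whether reads were counted by strand is not given in the sources used here.

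Pink1 (chr4:138313409-138326307, minus strand) showed the largest difference of the 10 by fold. It had 43.3, 93.7 and 95.7 CPM in KO and 102, 319, 348 and 249 CPM in KO+NM1. The groups did not overlap, yet KO+NM1 piece 01 was close to KO pieces 02 and 03. KO piece 01, with the lowest sum of skeletal muscle markers in its group, was the lowest of all. Between the groups those markers were higher in KO while Pink1 was lower, and a link was not tested. The log2 fold change of Pink1 was −1.71 ± 0.46 (SE; edgeR adjusted p = 0.0225). It was not called without KO piece 01 (edgeR adjusted p = 0.0631), KO+NM1 piece 02 (0.0542) or KO+NM1 piece 03 (0.0515).

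Bnip3l (chr14:66985239-67008877, minus strand), a receptor that binds LC3-family proteins and clears mitochondria from maturing red blood cells, had 59.6, 69.7 and 63.9 CPM in KO and 94.1, 124, 121 and 119 CPM in KO+NM1. All KO pieces were below all KO+NM1 pieces. The log2 fold change was −0.83 ± 0.14 (SE; edgeR adjusted p = 0.00350), and Bnip3l was called in all 16 alternative settings. Fundc1 (chrX:17556564-17572325, minus strand), another receptor of the outer membrane, was at 32.9, 34.5 and 35.9 CPM in KO and at 30.4, 35.8, 34.5 and 34.9 CPM in KO+NM1. The ranges overlap nearly completely, with a difference of 0.02 ± 0.12 on the log2 scale (edgeR adjusted p = 0.893). Becn1 (chr11:101285952-101302286, minus strand) had 93.8, 93.0 and 96.5 CPM in KO and 93.1, 80.7, 78.7 and 74.5 CPM in KO+NM1, and was not called (log2 fold change 0.21 ± 0.12; edgeR adjusted p = 0.195), though it was by limma voom with sample quality weights (0.00661). Its highest KO+NM1 piece, 01, lay just inside the KO range. Becn1 shares 3104 exon bases with Cntd1 on the opposite strand, which had 2 to 9 counts per library.

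**Figure D2:**
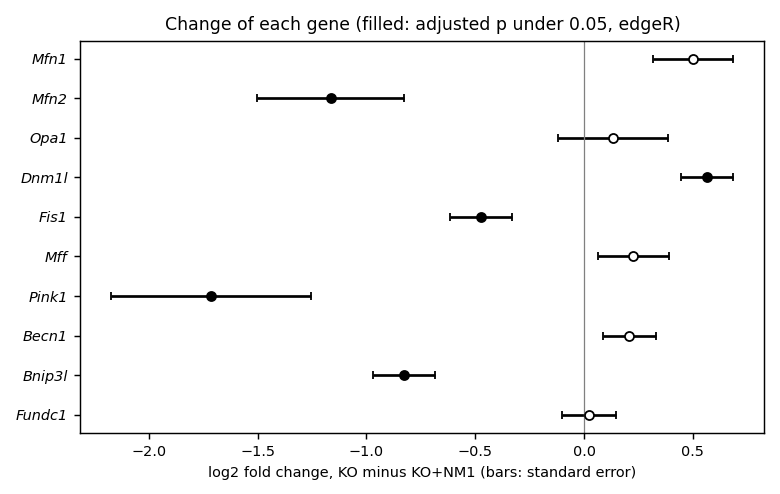
Log2 fold change of each gene, KO minus KO+NM1 (x axis), with a standard error computed from the edgeR fit as bars. Filled points have an adjusted p under 0.05 in edgeR. Pink1 at −1.71 and Mfn2 at −1.16 lie farthest from 0, and Dnm1l at 0.57 is the one filled point to the right.

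Levels of different genes were compared per kilobase of exon, as RPKM, which is CPM divided by exon length in kilobases. In KO, Fis1 was the highest with a mean of 46.3 ± 3.48 RPKM (SD, n = 3). Pink1 (29.0 ± 11.1), Dnm1l (21.9 ± 0.69) and Mfn2 (19.3 ± 1.35) came next, of which Pink1 overlaps both Dnm1l and Mfn2 within their SDs. Bnip3l followed with 16.7 ± 1.30, which overlaps Mfn2 and Pink1 as well. Then came Fundc1 with 14.6, Becn1 with 13.4, Mfn1 with 13.1 and Opa1 with 11.3 RPKM, where Becn1 and Mfn1 lie within their SDs. The exon length of Becn1 includes the 3104 bases shared with Cntd1. Whether reads there were counted is not known, so the level and rank of Becn1 are uncertain in both groups. Mff was the lowest with 6.29 ± 0.10. In KO+NM1, Pink1 was the highest with 95.2 ± 41.1 RPKM (SD, n = 4), ahead of Fis1 with 64.2 ± 8.11 and Mfn2 with 43.1 ± 17.7, and these 3 overlap within their SDs. Bnip3l stood at 29.6, Dnm1l at 14.8, Fundc1 at 14.4, Becn1 at 11.6, Opa1 at 10.3, Mfn1 at 9.29 and Mff at 5.37 RPKM. Dnm1l, Fundc1 and Opa1 do not differ beyond their spread there, nor do Mfn2 and Bnip3l, or Becn1, Opa1 and Mfn1. Mff, the fission adaptor, was the lowest of the 10 in both groups.

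A ratio of 2 genes within a library does not depend on how libraries are scaled. The linear ratio of Mfn1 to Mfn2, per kilobase, was 0.712, 0.667 and 0.671 in KO and 0.321, 0.204, 0.179 and 0.229 in KO+NM1. The mean log2 ratio was higher in KO by 1.58. The ratio of Dnm1l to Fis1 was 0.502, 0.466 and 0.457 in KO and 0.206, 0.227, 0.259 and 0.236 in KO+NM1, a log2 difference of 1.04. Both ratios separated the groups without overlap. Bnip3l to Fundc1 was 1.10, 1.23 and 1.09 in KO and 1.89, 2.11, 2.13 and 2.07 in KO+NM1, a log2 difference of −0.85. Pink1 to Becn1 was 1.22, 2.66 and 2.62 in KO and 2.89, 10.4, 11.7 and 8.83 in KO+NM1, a log2 difference of −1.87. These ratios did not overlap either. The level of the Pink1 to Becn1 ratio depends on the exon length used for Becn1, which is uncertain as described above. The 2 forms of a two-sided exact permutation test over the 7 libraries gave different sides of 0.05. With the absolute difference of means, the exact p was 0.0286 for the first 3 ratios, the smallest this form can give (adjusted over the 4 ratios 0.0381), and 0.0571 for Pink1 to Becn1. With the smaller tail doubled, the exact permutation p was 0.0571 for all 4, the smallest that form can give, so it could not have reached 0.05. The doubled form was run first and the other was adopted after its result had been seen, so the lower values are a description, as is the separation of the groups.

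**Figure D3:**
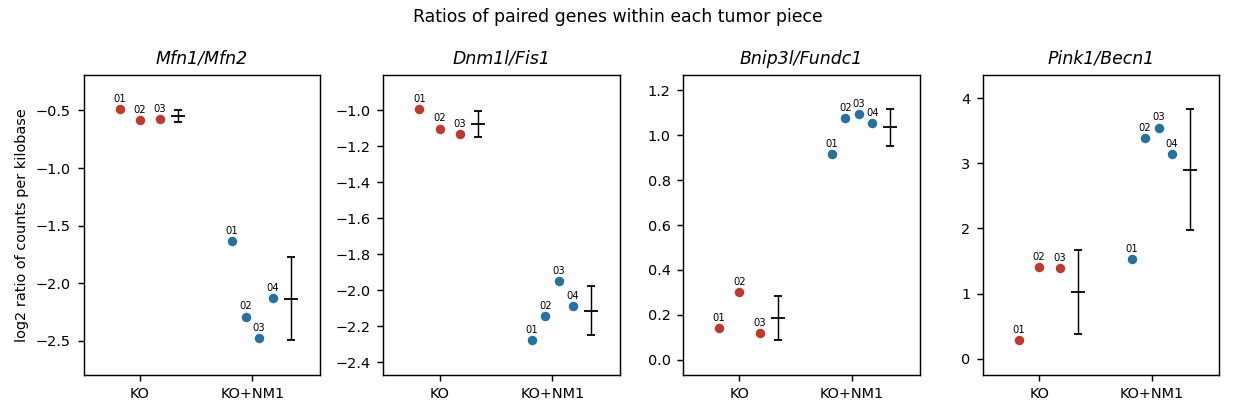
Log2 ratio of counts per kilobase of exon (y axis) for 4 gene pairs within each KO (red) and KO+NM1 (blue) piece, with the mean and SD of each group in black. The groups do not overlap in any panel, and KO+NM1 piece 01 lies nearest to KO for Mfn1/Mfn2, Bnip3l/Fundc1 and Pink1/Becn1.

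The 250 bases before a RefSeq start, the one nearest to the annotated gene start, are shown for 4 genes (RefSeq, GRCm38.p6). They are the gene pairs of fusion and fission whose ratio separated the groups, Mfn1 with Mfn2 and Dnm1l with Fis1. Of the 10 genes, 8 were in the promoter table. Capitals mark a match to CCGGAAGT, a motif bound by ETS factors, and the other letters are in lower case.
Mfn1, chr3:32529232-32529481, plus strand: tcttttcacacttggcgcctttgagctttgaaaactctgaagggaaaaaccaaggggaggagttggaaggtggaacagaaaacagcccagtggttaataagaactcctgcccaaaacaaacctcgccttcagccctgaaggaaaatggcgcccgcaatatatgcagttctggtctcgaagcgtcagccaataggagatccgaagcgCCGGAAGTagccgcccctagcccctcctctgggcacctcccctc
Mfn2, chr4:147904699-147904948, minus strand: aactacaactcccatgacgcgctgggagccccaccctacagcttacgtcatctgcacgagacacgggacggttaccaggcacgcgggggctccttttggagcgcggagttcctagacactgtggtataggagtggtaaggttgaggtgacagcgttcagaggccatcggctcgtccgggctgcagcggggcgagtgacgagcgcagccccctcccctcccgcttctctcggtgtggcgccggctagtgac
Dnm1l, chr16:16359032-16359281, minus strand: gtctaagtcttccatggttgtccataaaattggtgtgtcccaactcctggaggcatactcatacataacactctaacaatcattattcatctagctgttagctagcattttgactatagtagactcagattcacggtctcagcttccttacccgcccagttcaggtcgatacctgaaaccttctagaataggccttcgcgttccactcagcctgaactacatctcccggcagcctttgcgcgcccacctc
Fis1, chr5:136953025-136953274, plus strand: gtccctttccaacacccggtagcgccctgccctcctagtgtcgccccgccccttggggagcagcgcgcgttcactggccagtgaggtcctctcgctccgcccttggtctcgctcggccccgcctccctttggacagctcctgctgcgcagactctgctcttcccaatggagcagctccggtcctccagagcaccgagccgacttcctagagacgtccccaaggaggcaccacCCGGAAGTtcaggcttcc
The match lies 44 bases before the start of Mfn1 and 18 before that of Fis1. Both strands were searched for CCGGAAGT, for the palindromic NRF1 motif, for the estrogen-related receptor half-site AAGGTCA and for the E-box CACGTG, and no matches overlapped one another. No match was found in the windows shown for Mfn2 and Dnm1l. The table lists 3 starts for Mfn2 and 2 each for Dnm1l and Fis1, and the windows of the other starts are not shown and were not described. Opa1 held an NRF1 match 59 bases before its start. Of 32851 windows of this length, 2.88% held CCGGAAGT, 0.782% the NRF1 motif, 4.08% AAGGTCA and 6.02% CACGTG. A match of letters is a description and not a binding site.

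Genes around the 10 were taken from lists of the same pathway, 93 genes in all. Of the 91 tested, 16 were higher and 20 lower in KO (of all tested genes 25.7% and 24.5%), with a median log2 fold change of −0.16. Without KO+NM1 piece 01 the number lower was 43, without KO+NM1 piece 02 it was 12, and without any 1 of the KO pieces 8 were higher. Among 18 regulators of fusion and cristae, 0 rose and 3 fell in edgeR, and the median was −0.38. Oma1, the protease that cleaves OPA1 under stress, fell by 0.68 on the log2 scale, and Micos10, a subunit of the complex that forms cristae junctions, by 0.60.

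Fission adaptors and regulators moved both ways, with 5 of 16 higher and 3 lower. Mtfr2, a regulator of fission, had 14.2 to 15.7 CPM in KO and 0.25 to 1.35 CPM in KO+NM1 (log2 fold change 4.30 ± 0.48; edgeR adjusted p = 0.000952). Spire1, an actin nucleator, rose by 1.19 on the log2 scale. Mtfp1, an inner membrane protein of fission, had 2.60 to 3.00 CPM in KO and 7.25, 15.4, 28.4 and 10.3 CPM in KO+NM1 (log2 fold change −2.46 ± 0.46; edgeR adjusted p = 0.00629), and Mtfr1l fell by 0.82. Mief2, a receptor of DRP1, differed by 0.01 (edgeR adjusted p = 0.977).

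Of 7 mitophagy receptors, 1 rose and 1 fell. Bnip3, the paralog of Bnip3l, had 26.4, 41.8 and 42.2 CPM in KO and 58.7, 382, 368 and 278 CPM in KO+NM1. Piece 01 lay apart from the rest of its group, as it did for white adipocyte markers, and a link was not tested. The log2 fold change of Bnip3 was −2.88 ± 0.57 (edgeR adjusted p = 0.00887), and it was called in all 16 alternatives. Fundc2 was higher by 0.51 (edgeR adjusted p = 0.0287). In the PINK1 branch 5 of 15 were higher and 3 lower. Usp15, a deubiquitinase that opposes PINK1-dependent mitophagy, was higher by 1.30 and Pgam5, a mitochondrial phosphatase, by 1.09, while Optn, an autophagy receptor, fell by 2.00. Sqstm1, the receptor p62, was not called, at a log2 fold change of 0.38 (edgeR adjusted p = 0.0919).

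Of the 8 genes of the Beclin 1 complex, 0 rose and 3 fell in edgeR, among them Nrbf2 by 0.57 and Atg14 by 0.57 on the log2 scale, both subunits of the lipid kinase complex. Among 25 genes of autophagy initiation and conjugation, 3 rose and 7 fell. Gabarapl1, an LC3-family protein, had 33.7 to 41.4 CPM in KO and 61.7, 189, 178 and 176 CPM in KO+NM1 (log2 fold change −1.98 ± 0.37; edgeR adjusted p = 0.00577), and Atg10, an E2-like enzyme, fell by 1.80. Atg9a, a membrane scramblase, was higher by 0.71 and Atg5 by 0.58. Of 5 transport genes, 3 were higher and 1 lower: Trak2 by 0.93 and the motor gene Kif5b by 0.91 upward, and the adaptor Trak1 fell by 1.00. Of 12 genes of mitochondrial import and mass, 5 were higher and 0 lower in edgeR (of all tested genes 25.7% and 24.5%). Their summed values overlapped, at 2668 to 3011 CPM in KO and 1499 to 3621 CPM in KO+NM1. Several of the smaller changes depended on the setting: of 16 alternatives Fundc2 was called in 5, Micos10 in 7, Atg14 in 10, Atg5 in 12, Oma1 in 13, and Nrbf2 and Atg9a in 14.

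**Figure D4:**
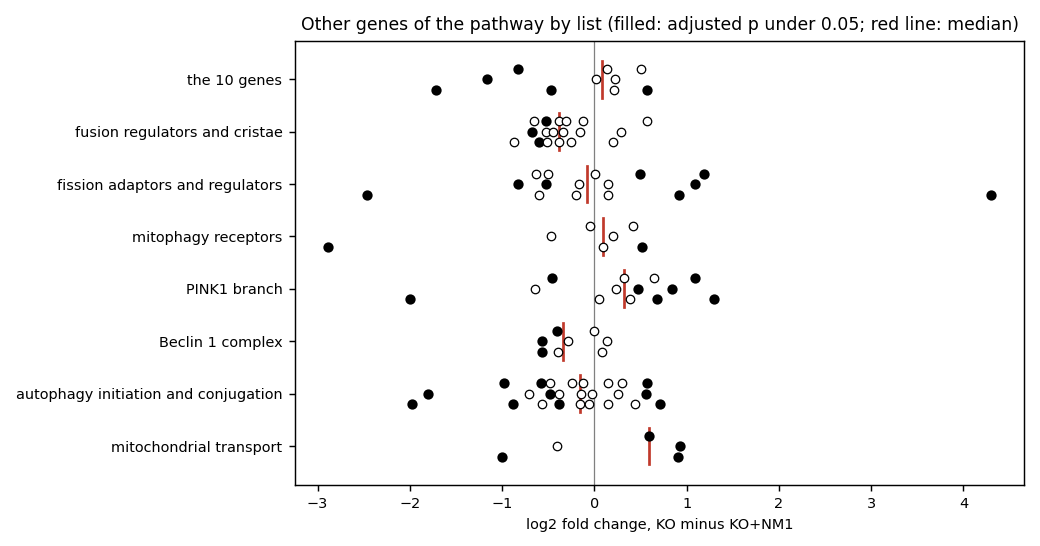
Log2 fold change, KO minus KO+NM1 (x axis), of the 10 genes and of the reported genes of each pathway list; filled points have an adjusted p under 0.05 in edgeR and red lines are medians over all tested genes of a list. Mtfr2 at 4.30 and Bnip3 at −2.88 are the outermost points, and the list medians lie between −0.38 and 0.59.

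The pieces of the KO+NM1 group differed in how much mitochondrially encoded RNA they held. Genes of the mitochondrial genome took 1.81%, 2.14% and 1.87% of counts across KO pieces 01, 02 and 03, and 5.11%, 10.5%, 18.5% and 7.77% across KO+NM1 pieces 01, 02, 03 and 04. Within KO+NM1 the order 01, 04, 02, 03 from low to high was shared by Mfn1, Mfn2, Opa1, Mff and Pink1, 5 of the 10, and by 12.7% of all tested genes. The summed brown adipocyte and endothelial markers had the same order, and the white adipocyte and B and plasma cell sums did not. Brown adipocyte sums of pieces 01 and 04 were near each other (419 and 436 CPM). Not every gene of these lists kept the order. Ucp1, a brown adipocyte marker, was lowest in piece 04, and Pecam1, an endothelial marker, was highest in piece 01. The order was looked at after the values had been seen and rests on 4 pieces. Across the groups, Mfn1, Opa1 and Mff had KO values at or above most KO+NM1 values while the KO share was the lowest. Mfn2 and Pink1 were lower in KO, and a link of these genes to the share was not tested.

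**Figure D5:**
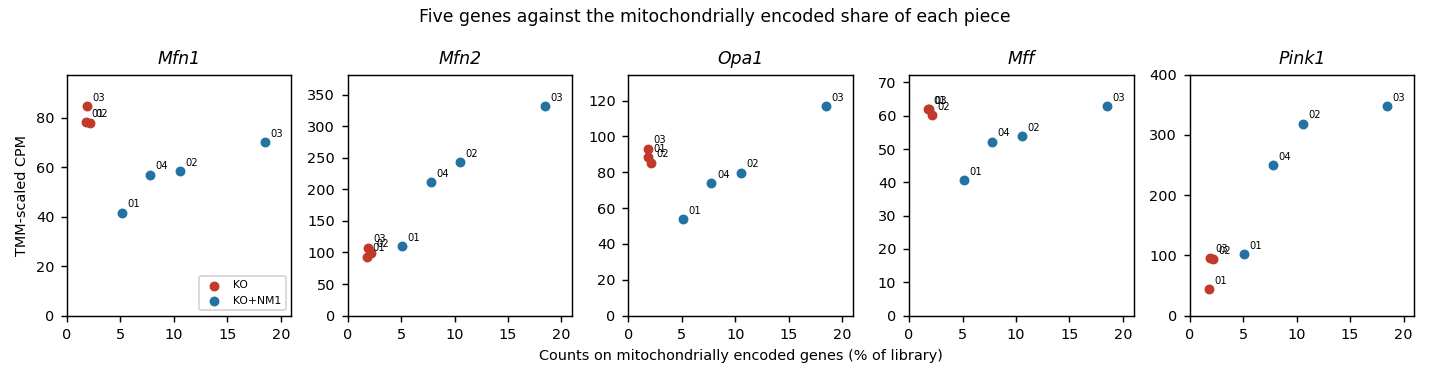
TMM-scaled CPM (y axis, from 0) of the 5 genes that share the order of the mitochondrially encoded share (x axis, percent of counts), by piece, KO in red and KO+NM1 in blue. Within KO+NM1 all 5 rise from piece 01 at 5.11% to piece 03 at 18.5%, and the KO pieces sit at 1.81% to 2.14% with high Mfn1, Opa1 and Mff and low Mfn2 and Pink1.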

How the data were processed

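RNA was measured in 3 KO and 4 KO+NM1 tumor pieces. The authors deposited raw counts per gene, whole numbers without normalization. Per the labels and methods, trimming was by Trimmomatic 0.36, alignment to GRCm38 by HISAT2 2.0.4, sorting by SAMtools 0.1.19 and counting by HTSeq. The annotation release and strand option are not given in the sources used here. Symbols, coordinates and exon lengths came from GENCODE M21.

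Counts were analysed in R 4.3.3 with edgeR 4.0.16. Genes were kept by filterByExpr (minimum count 10), given TMM scaling and fitted with the quasi-likelihood model, and p-values were adjusted by Benjamini-Hochberg over 16887 genes. Standard errors of the log2 fold changes were computed separately from the fitted means, the dispersion and the moderated quasi-likelihood dispersion of that model. CPM used the TMM-scaled library size, and RPKM the union of exons. Ratios were compared by an exact permutation test (SciPy 1.17.1). The design called it two-sided without naming the form. The doubled tail was run first, and the absolute difference of means was adopted after its result had been seen, because it reaches the smallest p written in the design. Both are reported. The edgeR fit was also run on simulated counts of independent libraries with known changes, and the outcome is not given here.

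Named genes were the 10, Myo1c, Bnip3, Sqstm1 and Mief2, and from each pathway list the 2 largest called rises and falls. Some genes that this rule names are not reported here, though list counts include them. Marker lists were made for B and plasma cells, fibroblasts, skeletal muscle, keratinocytes, white and brown adipocytes, endothelium, macrophages, mammary epithelium and erythroid cells. The members and lists were chosen with earlier results of these data known. Alternatives were other scalings and filters, mitochondrially encoded genes left out, DESeq2 1.42.0, voom with sample quality weights in limma 3.58.1, a replicate block, and each library left out.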

Additional observations from a re-analysis of the deposited data

Results flagged for a closer look

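Among the 4 KO+NM1 pieces, Dixon's ratio of gap to range was taken for 35 values. In 3 of them the lowest piece, 01, lay apart by more than the 95% critical value. About 1.75 would be flagged by chance if the values were independent. They all rest on the same 4 pieces and include ratios of the genes, so that number is no baseline for them. The gap was 0.835 of the range for Bnip3l, 0.881 for Fundc2 and 0.901 for Gabarapl1.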

How the results depend on the processing

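The 1 member called higher became 3 with library size alone and 3 with voom and sample quality weights together (voom below), and 0 with the replicate block; leaving out 1 library gave 0 to 2. The 4 called lower became 2 with the block, and 1 to 4 when 1 library was left out. Of the pathway genes, 16 were higher, against 30 with voom, 9 with the block and 8 to 18 with 1 library left out, and 20 were lower, against 43 with voom, 10 with library size alone, 6 with the block and 12 to 43 with 1 library left out. Over all genes 4345 were higher, against 7038 with voom, and 4132 lower, against 2680 with the block. The cause of these differences was not tested. Same-numbered KO and KO+NM1 pieces had deviations correlated at 0.08, 0.10 and −0.02, so the numbers were not taken to pair the samples. In the replicate block, KO+NM1 piece 04 has no KO piece of its number and so adds nothing to the group difference. Calls lost with the block are to be read with that limit. DESeq2 size factors, upper-quartile scaling and library size alone shifted the median of all genes by −0.10, −0.16 and 0.17 on the log2 scale. Signs turned only for genes that were not called in the reported fit. Opa1 went to −0.0284 with upper-quartile scaling and to between −0.15 and 0.35 with 1 library left out, and Mff to between −0.0045 and 0.31. Fundc1 went to −0.0794 with DESeq2 size factors, −0.137 with upper-quartile scaling, −0.0769 with every gene of at least 1 count, −0.0270 with at least 10 counts in every library, −0.0786 with the Wald test, −0.0076 with voom, and between −0.153 and 0.0318 with 1 library left out. Mief2 went to −0.0951, −0.148, −0.0922, −0.0384 and −0.0946 under the first 5 of these, to −0.0922 with the block, and to between −0.21 and 0.21 with 1 library left out. Where 1 library was left out, edgeR and its shared dispersion still had at least 2 pieces a group. Pieces of possibly 1 tumor per condition limit every p-value here.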

Other observations

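Of the marker lists not given above, some differed in their sums between the groups and others overlapped. Endothelial markers (6 genes) summed to 178 to 204 CPM in KO and 941 to 1298 CPM in KO+NM1, and erythroid markers (6 genes) to 19.5 to 30.0 CPM and 218 to 829 CPM. Mammary epithelium markers (7 genes) summed to 4.06 to 66.3 CPM in KO and 360 to 1641 CPM in KO+NM1. Summed fibroblast markers (8 genes) overlapped, with 7187 to 12975 CPM in KO and 2843 to 12990 CPM in KO+NM1. By gene, 4 of the 8 were called lower in KO and 0 higher (of all tested genes 24.5% and 25.7%). Dcn was at 175 to 263 CPM in KO and 500 to 2340 CPM in KO+NM1. Col1a1 went the other way without being called, at 3436 to 5818 CPM and 589 to 2327 CPM. Keratinocyte markers (6 genes) summed to 25.7, 1207 and 3.86 CPM across KO pieces 01, 02 and 03. In KO+NM1 they summed to 56.0 to 419 CPM, so the groups overlapped through KO piece 02 alone.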
